A study of Mus musculus with 12 samples.

Results

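The 9 genes described here encode adult hemoglobin and other parts of the red cell program: Hba-a1 and Hba-a2, Hbb-bs and Hbb-bt, Alas2, Klf1, Slc4a1, Epor and Car1. They were chosen by name, with their levels by replicate number in these libraries already known, and make up 9 of the 32285 genes in the deposited table. Their contrast between replicate numbers is therefore given as a description, with no test. RNA was sequenced from wild-type C57BL/6J mice, from Ly6d- CLPs, common lymphoid progenitors of the bone marrow (BM) lacking the B-lineage surface protein Ly6d, and from Flk2+ MPPs, multipotent progenitors upstream of them. Both populations were sorted from lineage-depleted BM at 1 month (1MO) and 3 months (3MO) of age. Each of the 4 groups held 3 libraries numbered 1 to 3, giving 12 in all. The study describes 3 independent experiments and sorts made per mouse. The library names in the labels place the 4 libraries of a number next to each other, and the labels do not state whether these shared a mouse or an experiment. The antibodies used to deplete lineage-positive cells included Ter-119, which marks erythroid cells, and red blood cells were lysed before the sort.

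Red cells are made in the BM from progenitors that lose their alternatives and turn on a set of genes for hemoglobin, heme and the red cell membrane. Adult hemoglobin joins a pair of alpha chains to a pair of beta chains, each holding a heme group that binds oxygen. Nucleated erythroblasts and reticulocytes hold very large amounts of globin mRNA, whereas hemoglobin is not among the products by which lymphoid and multipotent progenitors are known.

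The mouse carries adjacent copies of each adult globin gene, and the sequences below are shown because the copies are almost the same and reads from them are hard to assign. In GENCODE M21 on GRCm38, Hba-a1 lies on the plus strand at chr11:32283511-32284465 and Hba-a2 on the same strand at chr11:32296489-32297298. Their coding sequences, each of 426 bases, differ at 1 base, C381T, given as the base of Hba-a1, the position from 1 at the first base of the start codon, and the base of Hba-a2. Bases 351 to 410 of the coding sequence follow 5′ to 3′, with the differing base in capitals.

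Hba-a1: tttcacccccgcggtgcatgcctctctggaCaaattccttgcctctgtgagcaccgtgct

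Hba-a2: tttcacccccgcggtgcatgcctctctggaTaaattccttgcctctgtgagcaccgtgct

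Hbb-bs lies on the minus strand at chr7:103826534-103828096 and Hbb-bt on the same strand at chr7:103812524-103813996. Their coding sequences, each of 441 bases, also differ at 1 base, C417T, counted in the same way with the base of Hbb-bs first. Neither base difference changes the encoded protein. Bases 387 to 441 of both are printed below, with the differing base in capitals.

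Hbb-bs: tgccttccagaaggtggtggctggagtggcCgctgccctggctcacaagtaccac

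Hbb-bt: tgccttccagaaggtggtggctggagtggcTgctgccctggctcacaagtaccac

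Alpha and beta chains are distant relatives, with 55.1% of aligned coding bases identical between Hba-a1 and Hbb-bs. Of all stretches of 50 bases in the annotated Hba-a2 transcript, 86.9% also occur in that of Hba-a1, and 67.5% of those of Hba-a1 occur in Hba-a2. For the beta genes, 65.8% of the stretches of Hbb-bs occur in Hbb-bt and 58.3% in the other direction. The levels of the separate copies are uncertain for this reason, and sums over copies are given beside them.

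The upstream sequences were searched for letters known from globin promoters: CCAAT, the TATA-type letters ATATAA, the CACC-type letters CCNCNCCC, and GATAA, the core recognized by GATA factors, each on both strands of the 250 bases before the RefSeq start. RefSeq promoters of GRCm38.p6 were at hand for 7 of the 9 genes. GATAA occurred in 7 of the 7 and in 22.6% of all 32851 promoters. ATATAA occurred in 4 of 7, the 4 globin genes, against 9.10% of all promoters. CCAAT occurred in 5 of 7 against 33.9% of all, and CCNCNCCC in 4 of 7 against 45.9%. The stretch before Hba-a2 (chr11:32296242-32296488, plus strand, RefSeq on GRCm38.p6) holds 3 of these, in capitals: the GATA-type letters, then CCAAT, then the TATA-type letters nearest the start.

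Hba-a2 upstream: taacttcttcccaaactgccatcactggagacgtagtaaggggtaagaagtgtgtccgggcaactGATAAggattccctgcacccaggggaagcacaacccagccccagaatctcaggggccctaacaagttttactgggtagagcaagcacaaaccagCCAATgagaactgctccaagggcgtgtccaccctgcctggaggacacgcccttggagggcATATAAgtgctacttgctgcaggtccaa

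The 247 bases before the RefSeq start of Hba-a1 are the same without a difference, though that start lies downstream of the GENCODE start given above, so much of this stretch falls within the GENCODE gene. In Hbb-bt, 3 matches to CCAAT were found, and in Alas2 and Epor 4 matches each to CCNCNCCC. These matches are a description of letters in the sequence.

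The deposited values are estimated counts per gene, and levels are given as counts per 1000000 (CPM) after TMM scaling. Libraries held 8889083 to 20677785 estimated counts in all, and the share of mitochondrial counts from 1.30% to 2.23%. Summed over 7 CLP marker genes, the 6 CLP libraries held 4213 to 5250 CPM and the 6 MPP libraries 1649 to 2202 CPM. Summed over 7 MPP marker genes, the CLP libraries held 2305 to 2499 CPM and the MPP libraries 2895 to 3303 CPM. Neither sum overlapped between the cell types, though Flt3 and Cd27 are in both lists. Group means of Cd27 in the CLP list and of Flt3 and Cd48 in the MPP list went against their sums at both ages. At 1MO, Cd27 stood at 105.6 CPM in Ly6d- CLPs and 121.3 CPM in Flk2+ MPPs. Flt3 stood at 1423 and 1150 CPM, and Cd48 at 61.5 and 58.9 CPM. The highest gene of the CLP list in 1MO Ly6d- CLPs was Dntt, at 2608 against 418.1 CPM. The other genes followed their sums.

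Hemoglobin transcripts were rare in all 12 libraries and were most frequent in the libraries numbered 3 of every group. The 4 adult globin genes together held 13.6, 10.1 and 119.1 CPM in 1MO Ly6d- CLPs for libraries 1, 2 and 3. In 3MO Ly6d- CLPs they held 19.3, 13.8 and 79.1 CPM. The same sum was 25.1, 8.89 and 124.5 CPM in 1MO Flk2+ MPPs. It was 13.7, 18.1 and 100.2 CPM in 3MO Flk2+ MPPs. All 4 libraries numbered 3, at 79.1 to 124.5 CPM, thus lay above the other 8, at 8.89 to 25.1 CPM. Within a group, the library numbered 3 held 10.1-fold the mean of the other two in 1MO Ly6d- CLPs, 4.79-fold in 3MO Ly6d- CLPs, 7.34-fold in 1MO Flk2+ MPPs and 6.29-fold in 3MO Flk2+ MPPs. On the log2 scale of CPM plus 1, the level was 4.20 ± 0.40 over the 4 libraries numbered 1, 3.73 ± 0.43 over those numbered 2 and 6.72 ± 0.29 over those numbered 3 (SD, n = 4).

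Without scaling, the lowest exact Clopper-Pearson 95% lower bound among the libraries numbered 3 was 72.7 per 1000000 counts, and the highest upper bound among the others was 28.3. Such intervals cover counting error only, and estimated counts are not whole molecules. In bulk RNA, fewer cells of a type and less RNA per cell cannot be told apart, so these values do not say how many cells carried the transcripts.

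**Figure D1:**
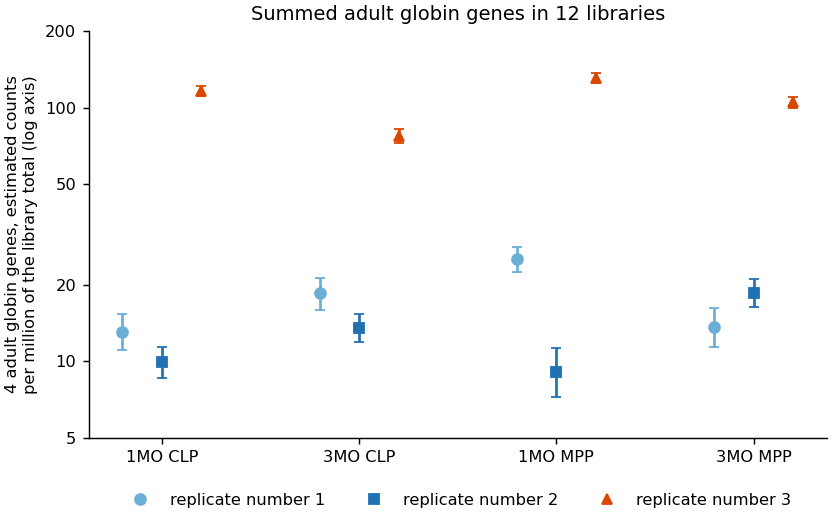
Estimated counts of the 4 adult globin genes per 1000000 of each library's total, on a log axis, for the 4 groups on the horizontal axis, with exact 95% binomial intervals as bars. The libraries numbered 3 lie at 77.4 to 131.1 per 1000000 and the other 8 at 9.11 to 25.3.

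The alpha chain genes followed the sum. Hba-a1 stood at 8.002, 1.38 and 31.3 CPM in 1MO Ly6d- CLPs and at 4.24, 6.97 and 20.4 CPM in 3MO Ly6d- CLPs, for libraries 1, 2 and 3. In Flk2+ MPPs, Hba-a1 stood at 1.93, 1.54 and 26.7 CPM at 1MO and at 0, 1.44 and 22.0 CPM at 3MO. The highest library of each group was the one numbered 3, and the ranges of the 4 groups overlapped. Hba-a2 stood at 1.17, 3.16 and 24.3 CPM in 1MO Ly6d- CLPs and at 3.63, 0 and 16.0 CPM in 3MO Ly6d- CLPs. In Flk2+ MPPs it stood at 4.26, 0.88 and 32.8 CPM at 1MO and at 4.44, 5.03 and 26.0 CPM at 3MO. The mean over the libraries numbered 3 was 7.87-fold that over the other 8 for Hba-a1 and 8.78-fold for Hba-a2.

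The beta chain genes did the same at different levels. Hbb-bs, the more abundant copy, stood at 2.52, 3.999 and 52.2 CPM in 1MO Ly6d- CLPs and at 9.28, 2.87 and 29.8 CPM in 3MO Ly6d- CLPs. In Flk2+ MPPs, Hbb-bs stood at 10.3, 6.47 and 42.6 CPM at 1MO and at 3.59, 8.63 and 41.8 CPM at 3MO. Again each group's highest library was that numbered 3. Hbb-bt stood at 1.89, 1.58 and 11.4 CPM in 1MO Ly6d- CLPs and at 2.12, 3.92 and 12.9 CPM in 3MO Ly6d- CLPs. In Flk2+ MPPs it stood at 8.59, 0 and 22.5 CPM at 1MO and at 5.71, 3.02 and 10.5 CPM at 3MO. The lowest library numbered 3 was thus close to the highest of the others for Hbb-bt, 10.5 against 8.59 CPM, and well apart for Hbb-bs, 29.8 against 10.3 CPM.

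The proportions of the chains and copies varied less among the libraries with more counts. Alpha chain genes made up 46.1% to 47.8% of the hemoglobin sum in the 4 libraries numbered 3 and 24.7% to 67.6% in the other 8. Hba-a1 held 44.9% to 56.3% of the alpha sum in the libraries numbered 3, and between 0% and 100% in the others. Hbb-bs held 65.4% to 82.1% of the beta sum in the libraries numbered 3 and 38.6% to 100% in the others. The hemoglobin sum rested on 1001 to 2068 estimated counts in the libraries numbered 3 and on 81 to 312 in the others, so the wider ranges come with fewer counts. Of the embryonic and minor globin genes, Hbb-y, Hbb-bh1, Hbb-bh2, Hba-x and Hbq1a were at 0 counts in all 12 libraries, and Hbq1b was above 0 in 1 library, at 0.55 CPM in 3MO Ly6d- CLPs number 3.

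The other 5 genes divided. Alas2, which encodes the erythroid form of the first enzyme of heme synthesis and lies on the plus strand at chrX:150547375-150570638, was at 0 to 0.08 CPM in 6 of the 12 libraries. It stood at 1.26, 0 and 2.35 CPM in 1MO Ly6d- CLPs and at 0, 0 and 1.34 CPM in 3MO Ly6d- CLPs. In Flk2+ MPPs, Alas2 stood at 0.08, 0 and 2.35 CPM at 1MO and at 0, 1.08 and 1.42 CPM at 3MO. The libraries numbered 3 lay above the other 8, narrowly at 3MO, where they stood at 1.34 and 1.42 CPM against a highest value of 1.26 in the others. Alas2 overlaps Apex2 on the opposite strand. The study names a directional library kit, and whether counting used strand is not given in the sources used here.

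Slc4a1 encodes band 3, the anion exchanger of the red cell membrane, and lies on the minus strand at chr11:102348824-102366203. It stood at 7.82, 2.27 and 29.997 CPM in 1MO Ly6d- CLPs and at 8.77, 5.03 and 16.8 CPM in 3MO Ly6d- CLPs. In Flk2+ MPPs, Slc4a1 stood at 4.10, 2.85 and 22.9 CPM at 1MO and at 0, 5.32 and 22.7 CPM at 3MO. Its mean over the libraries numbered 3 was 5.11-fold that of the others, and that of Alas2 was 6.17-fold.

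Klf1, a zinc-finger activator of globin and other erythroid genes (chr8:84901928-84905291, plus strand), did not sort by number. It stood at 1.35, 1.58 and 2.98 CPM in 1MO Ly6d- CLPs and at 0, 4.70 and 0.79 CPM in 3MO Ly6d- CLPs, where the library numbered 2 was the highest of all 12. In Flk2+ MPPs, Klf1 stood at 2.01, 0.77 and 1.81 CPM at 1MO and at 0, 1.37 and 2.05 CPM at 3MO. Epor, the receptor for erythropoietin, which sustains erythroid progenitors, lies on the minus strand at chr9:21958897-21963506. It stood at 3.06, 0.84 and 2.41 CPM in 1MO Ly6d- CLPs and at 0, 0.06 and 2.05 CPM in 3MO Ly6d- CLPs. In Flk2+ MPPs, Epor stood at 0.32, 0.22 and 1.26 CPM at 1MO and at 0.95, 0.14 and 0.21 CPM at 3MO. The library numbered 3 was the highest in 2 of the 4 groups for both genes.

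Car1, which encodes carbonic anhydrase 1, a cytosolic enzyme abundant in red cells, lies on the minus strand at chr3:14766216-14808368 and was the most even of the 9. It stood at 4.14, 6.22 and 11.04 CPM in 1MO Ly6d- CLPs and at 9.08, 6.74 and 3.64 CPM in 3MO Ly6d- CLPs. In Flk2+ MPPs, Car1 stood at 6.02, 7.13 and 6.02 CPM at 1MO and at 4.44, 7.33 and 8.08 CPM at 3MO. Its highest library, 1MO Ly6d- CLPs number 3, and its lowest, 3MO Ly6d- CLPs number 3, carried the same number. Its mean over the libraries numbered 3 was 1.13-fold that of the others. Car1 overlaps the processed pseudogene Gm16399 on the same strand.

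**Figure D2:**
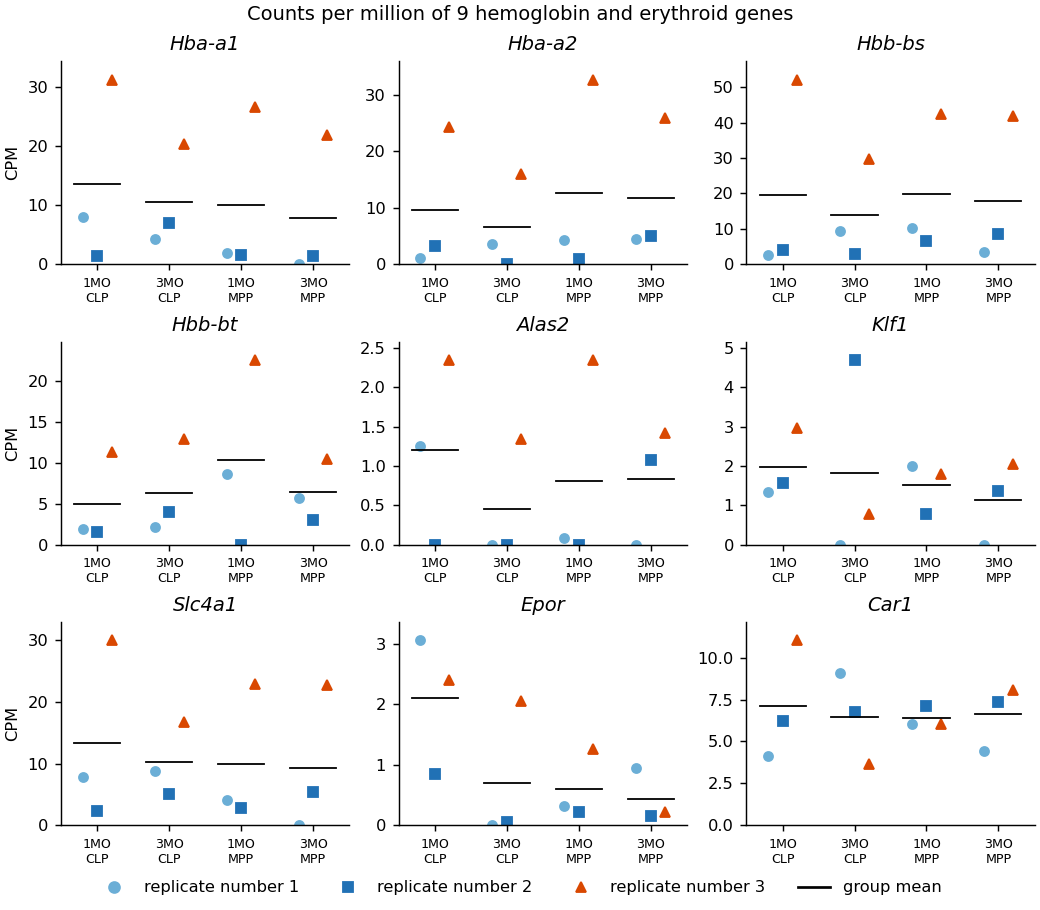
TMM-scaled CPM of each of the 9 genes (vertical axes, each on its own scale from 0) in the 4 groups, with 1 point per library shaped by replicate number and a line at the group mean (n = 3). For the 4 globin genes, Alas2 and Slc4a1 every library numbered 3 lies above all others, and for Klf1, Epor and Car1 the numbers mix.

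For 6 of the 9 genes, namely the 4 globin genes, Alas2 and Slc4a1, all 4 libraries numbered 3 lay above the other 8. The same was true of 62 of the 13367 genes tested, 0.464%. Since the genes were chosen with this pattern known, nothing is read from that comparison. The mean difference of log2 CPM within groups, number 3 minus the mean of the other two, was 3.60 for Hba-a1, 3.59 for Hba-a2, 2.93 for Hbb-bs and 2.59 for Hbb-bt. It was 2.86 for Alas2, 2.87 for Slc4a1, 1.33 for Epor, 0.95 for Klf1 and 0.10 for Car1. Ordered by this difference over all genes tested, Hba-a1 and Hba-a2 ranked 1 and 2, Hbb-bs ranked 4, Slc4a1 ranked 6, Alas2 ranked 7 and Hbb-bt ranked 13. Epor ranked 230, Klf1 ranked 552 and Car1 ranked 5445.

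Transcript length moved with replicate number. Over the 13356 tested genes with an annotated exon length, the median of that difference was 0.02. It was 0.44 for the 435 genes with under 1000 exon bases, 0.34 from there to 2000 bases, 0.12 from there to 4000 bases and -0.08 for 4000 bases or more. The 4 globin genes have 667 to 812 exon bases and fell above the 99th percentile of the shortest class, 2.48. Slc4a1, with 4891 exon bases, and Alas2, with 2403, had differences above the 99th percentiles of their own classes, 1.29 and 1.497. Klf1, Epor and Car1 have 1530, 1989 and 1248 exon bases. Klf1 at 0.95 and Car1 at 0.10 lay below the 95th percentile of their class, 1.18. Epor at 1.33 lay between that and the 99th percentile, 1.72. The genes were chosen with their levels by number known, so nothing is read from these positions. The study's methods name paired-end or single-end reads without tying either to a library. The parts of length and read layout in the result were not tested.

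Per 1000 exon bases, the order of levels in the libraries numbered 3 was Hbb-bs at 54.2 ± 11.95 CPM per kb, Hba-a2 at 37.1 ± 10.3, Hba-a1 at 30.9 ± 6.06, Hbb-bt at 20.4 ± 7.92, Car1 at 5.76 ± 2.52 and Slc4a1 at 4.73 ± 1.11, followed by Klf1 at 1.25 ± 0.59, Alas2 at 0.78 ± 0.23 and Epor at 0.75 ± 0.49 (SD, n = 4). In the other 8 libraries Car1, at 5.12 ± 1.28 CPM per kb, had a higher mean than Hba-a2 at 4.23 ± 2.82 and Hba-a1 at 3.92 ± 3.59, and a lower one than Hbb-bs at 7.75 ± 4.06 (SD, n = 8). The ranges of mean ± SD of these globin genes all overlapped that of Car1. In the libraries numbered 3, the ranges of mean ± SD of neighbours overlapped except between Hbb-bt and Car1 and between Slc4a1 and Klf1. Hba-a1 and Hba-a2 held 25.1 and 24.8 CPM on average in these libraries, so their order per kb comes from their exon bases, 812 and 667. Reads from these copies are hard to assign.

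Other genes of the red cell program were taken from 6 lists of 66 genes, of which 65 were in the table and 58 were tested. Levels in the libraries numbered 3 relative to the others had a median ratio of 1.16 over these 58 genes, against 5.11 over the 9. Genes of heme synthesis and iron uptake had a median ratio of 1.09 (15 genes), erythroid regulators 0.97 (11 genes) and erythropoietin signaling genes 0.89 (8 genes). Red cell membrane genes had a median ratio of 1.76 (15 genes) and red cell enzymes and late genes 1.40 (9 genes). The library numbered 3 was the highest of its group in all 4 groups for 10 of the 58, where 3.57% of all genes tested had this order. In 2 of the 58, all 4 libraries numbered 3 lay above the other 8. These were Rhag, a subunit of the Rh membrane complex, and Trim10, a gene expressed late in red cell formation. Rhag stood at 2.11 to 3.24 CPM in the libraries numbered 3 and at 0 to 1.44 in the others, and Trim10 at 1.08 to 1.39 against 0 to 0.80. The regulator Gata1, which directs erythroid and megakaryocytic differentiation, stood at 1.33 to 5.84 CPM in the libraries numbered 3 and at 0 to 11.2 in the others. Rhag, Trim10 and Gata1 passed in no comparison and are named here after their values were seen.

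**Figure D3:**
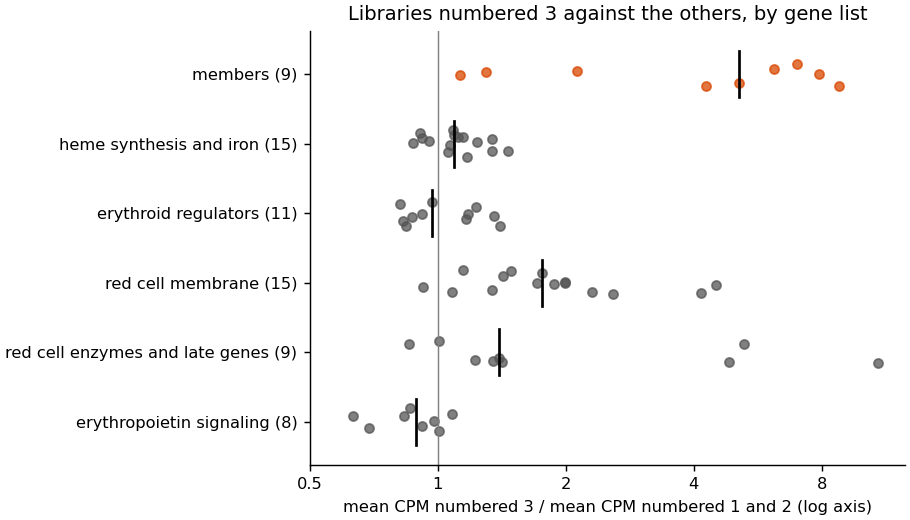
Ratio of the mean CPM over the 4 libraries numbered 3 to that over the other 8 (log axis), with 1 point per tested gene, rows for the 9 genes and for 5 lists of other erythroid genes, and a vertical tick at each median. The median of the 9 genes is 5.11 and the medians of the 5 lists lie between 0.89 and 1.76, while single genes of the red cell lists overlap the 9, as in the membrane list, which spans 0.92 to 4.50.

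Markers of other cell types and of the sorted cells were summed over 9 lists. In 0 of the 9 lists was the summed level highest in the library numbered 3 in all 4 groups. Of their genes, 0 had all 4 libraries numbered 3 above the rest, where 0.464% of all genes tested did, and nothing is read from that 0. Over 12 granulocyte genes the summed level was 715.1 to 967.3 CPM in the libraries numbered 3 and 623.0 to 1328 CPM in the others. Over 8 megakaryocyte and platelet genes it was 15.1 to 37.1 CPM against 21.8 to 60.8 CPM, with the platelet receptor gene Gp6 at 0 in all libraries. Over 9 monocyte and macrophage genes it was 181.1 to 263.7 CPM against 135.4 to 295.0 CPM. Over 6 mast cell and basophil genes it was 57.1 to 149.6 CPM against 27.3 to 99.9 CPM, with the library numbered 3 the highest in 3 of the 4 groups. Over 7 stromal genes it was 5.88 to 219.4 CPM against 4.74 to 601.2 CPM. The part of other cells in the hemoglobin counts was not tested.

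The share of the within-group sum of squares of log2 CPM that lay between replicate numbers summarizes how far libraries of equal number deviated together. It was 86.5% for Hbb-bs, 75.8% for Hba-a2, 72.1% for Hba-a1, 57.6% for Hbb-bt, 65.5% for Alas2 and 54.6% for Slc4a1. It was 41.6% for Epor, 39.7% for Klf1 and 7.73% for Car1. The median was 57.6% over the 9 genes and 31.4% over all genes tested, where 25% is the share if libraries of equal number had nothing in common. Without the libraries numbered 3, the median of the 9 genes was 24.8% and that of all genes 25.2%. The shares of the 9 genes are a description, as their levels by number were known when they were chosen.

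**Figure D4:**
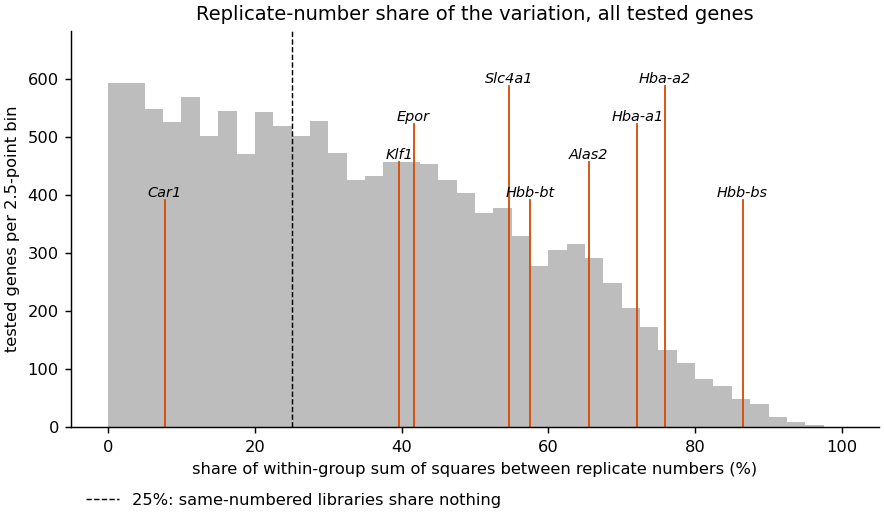
Distribution over all tested genes of the share of the within-group sum of squares lying between replicate numbers (horizontal axis, percent) in bins of 2.5 points, with the 9 genes marked by vertical lines whose heights carry no value. Hbb-bs lies at 86.5%, above the 95th percentile of all tested genes at 72.7%, and Car1 at 7.73% lies below the dashed line at 25%. Since the genes were chosen with their levels by number known, nothing is read from these places.

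By likeness of pattern, the 10 tested genes outside the 9 with the highest Pearson correlation to the mean of the 4 globin genes, over 12 libraries after centring each group, were Map1lc3b, U2af1, Prdx5, Rras, Ndufs8, Pym1, Eny2, Ift27, Ccdc115 and Arl2. Their r ran from 0.96 for Map1lc3b, an autophagy gene, to 0.90 for Arl2. These points share libraries, depth and transcript length differences. Their changes were small, with ratios of number 3 to the others from 1.27 for U2af1, a splicing factor gene, to 2.08 for Rras, a small GTPase gene. Over the 8 libraries not numbered 3, r was 0.40 for Eny2 and 0.95 for Arl2, the lowest and highest of the 10. Of the 5 genes that are not globins, Alas2 had r = 0.84, Slc4a1 0.79, Epor 0.47, Klf1 0.30 and Car1 0.17. Over the 8 libraries not numbered 3, these were 0.41 for Alas2, 0.49 for Slc4a1, -0.19 for Epor, 0.0017 for Klf1 and 0.20 for Car1.

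No difference with age passed the test for the hemoglobin and erythroid genes in either cell type, and the intervals were wide. In Ly6d- CLPs, 0 of these 9 passed a threshold of 0.05 on the p-value from edgeR (quasi-likelihood test, Benjamini-Hochberg adjusted over 13367 genes), 0 had an unadjusted p under 0.05, and DESeq2 called 0. Over all genes tested, 0.0748% passed in edgeR in this comparison and 5.9% had an unadjusted p under 0.05. The hemoglobin sum was 47.6 ± 62.0 CPM at 1MO, and at 3MO it was 37.4 ± 36.3 CPM (SD, n = 3). Hbb-bs had a log2 fold change of -0.49 for 3MO over 1MO, with a 95% interval of -2.82 to 1.84. Slc4a1 had a log2 fold change of -0.39 with an interval of -2.82 to 2.03. The difference of Epor was the largest of the 9 in this fit, at 2.10 ± 1.14 CPM against 0.70 ± 1.17 CPM (SD, n = 3), a log2 fold change of -1.56 with an interval of -4.82 to 1.69. The value for Epor rests on single libraries: it was -5.66 without the 3MO library numbered 3, -1.004 without the 3MO library numbered 1, -1.009 without the 3MO library numbered 2, and -5.54 without all 4 libraries numbered 3, where Alas2 differed more, by -6.03. The interval of Car1 was the narrowest, -1.20 to 0.92 around a log2 fold change of -0.14, and leaves room for changes of about 2-fold either way. The values for Hbb-bs, Slc4a1 and Car1 turned positive, to 0.87, 0.45 and 0.60, without the 4 libraries numbered 3.

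In Flk2+ MPPs, 0 of the 9 genes passed in edgeR, 0 had an unadjusted p under 0.05, and DESeq2 called 0. Of all genes tested, 0.0224% passed in edgeR and 3.48% had an unadjusted p under 0.05. The hemoglobin sum was 52.8 ± 62.6 CPM at 1MO, and at 3MO it was 44.0 ± 48.7 CPM (SD, n = 3). Log2 fold changes for 3MO over 1MO were -0.14 for Hbb-bs (95% interval -2.45 to 2.18), -0.09 for Slc4a1 (-2.52 to 2.33) and 0.05 for Car1 (-1.01 to 1.12). The test of whether the age difference itself differed between the cell types called 0 of the 9 genes in edgeR and in DESeq2, and 0 had an unadjusted p under 0.05, where 0% of all genes passed in edgeR. DESeq2 called 7 genes of the whole table in that test, and 429 had an unadjusted p under 0.05 in edgeR.

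No difference between the cell types passed for these 9 genes at either age. At 1MO, 0 of 9 passed in edgeR, 0 had an unadjusted p under 0.05, and DESeq2 called 0. Of all genes tested, 5.38% passed in edgeR and 15.8% had an unadjusted p under 0.05. The 5.38% are 719 genes. This count became 463 and 473 without the 1MO Ly6d- CLPs library numbered 2 or 3. It became 460 and 477 without the 1MO Flk2+ MPPs library numbered 1 or 3. At 3MO the counts were again 0, 0 and 0 of 9. Of all genes, 6.07% passed in edgeR and 19% had an unadjusted p under 0.05. Hbb-bs had a log2 fold change for CLPs over MPPs of -0.02 at 1MO (95% interval -2.33 to 2.29) and of -0.37 at 3MO (-2.70 to 1.95). Slc4a1 had values of 0.41 (-2.01 to 2.83) and 0.11 (-2.32 to 2.54). Epor at 1MO differed by 1.76 (-1.51 to 5.03), from 2.10 ± 1.14 CPM in Ly6d- CLPs to 0.60 ± 0.58 CPM in Flk2+ MPPs (SD, n = 3). Its adjusted p in edgeR was 0.72, in this fit the smallest of the 9 genes in any comparison. Without the 1MO Flk2+ MPPs library numbered 3, the difference of Epor was 2.91, and without all 4 libraries numbered 3 it was 2.80. Car1 differed by 0.16 at 1MO (-0.90 to 1.22) and by -0.03 at 3MO (-1.09 to 1.03). Across all 4 groups Car1 lay between 6.39 ± 0.64 and 7.13 ± 3.54 CPM (SD, n = 3), and no neighbours in that order differed beyond their spread. Without the 4 libraries numbered 3, the values of Car1 became -0.33 at 1MO and 0.42 at 3MO.

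In this fit, which has no term for replicate number, standard errors were smallest for Car1. Over the 9 genes and 4 comparisons between groups, they ran from 0.50 for Car1 to 2.05 for Alas2 on the log2 scale. With copies summed, the alpha chain genes differed by -0.44 with age in Ly6d- CLPs (standard error 1.12) and the beta chain genes by -0.28 (standard error 1.00).

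**Figure D5:**
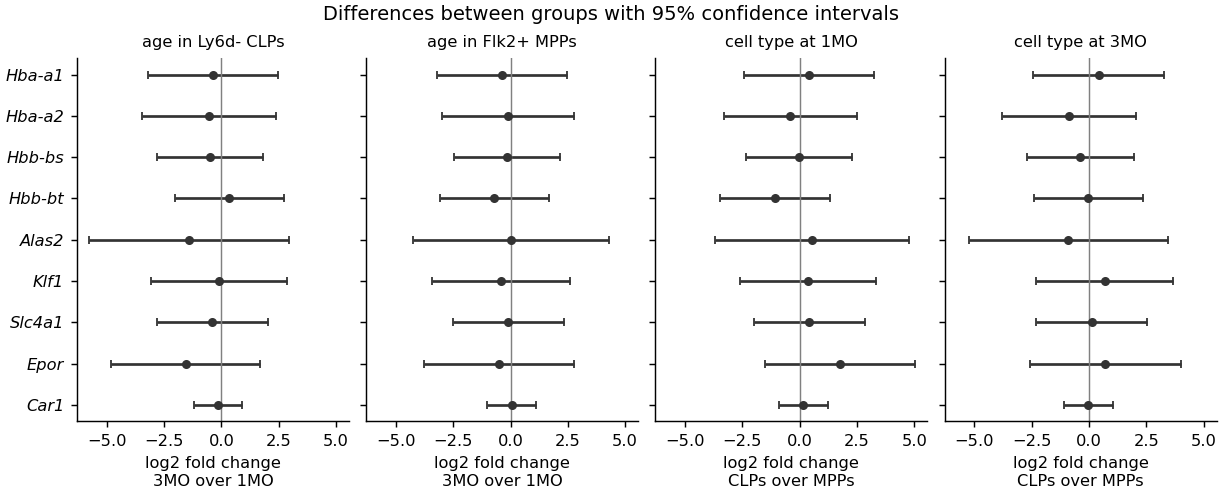
Log2 fold changes from edgeR (points) with 95% confidence intervals (bars) for the 9 genes in 4 comparisons, 3MO over 1MO in each cell type and CLPs over MPPs at each age. Every interval includes 0, and the intervals of Car1 are the narrowest.

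Some of the other erythroid genes, among them regulators, differed between the cell types. For age and its interaction with cell type, edgeR called 0 of the 58 other erythroid genes. At an unadjusted p under 0.05 there were 3 of 58 for age in Ly6d- CLPs, 1 in Flk2+ MPPs and 3 for the interaction, where 5.9%, 3.48% and 3.21% of all genes tested were. DESeq2 called 0, 1 and 1, the 1 being Socs2. At 1MO, 7 of the 58 passed with higher levels in Flk2+ MPPs, where 2.81% of all genes did, and 1 with higher levels in Ly6d- CLPs, where 2.57% did. At 3MO, 7 were higher in Flk2+ MPPs against 3.34% of all genes, and 3 higher in Ly6d- CLPs against 2.73%. DESeq2 called 9 of the 58 at 1MO, with Epb41 added, and 11 at 3MO, with Bcl2l1 added, both genes named after their values were seen. Among the 11 regulators, 5 were higher in Flk2+ MPPs at 1MO and 6 at 3MO. Their median log2 fold change for CLPs over MPPs was -1.42 and -1.20, beside -0.02 and -0.03 over all genes.

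Gata2, a factor that maintains stem and progenitor cells ahead of Gata1, stood at 10.8, 14.5 and 19.0 CPM in 1MO Ly6d- CLPs against 94.1, 97.7 and 105.6 CPM in 1MO Flk2+ MPPs. At 3MO it stood at 29.0, 10.9 and 12.3 CPM against 51.0, 71.5 and 83.7 CPM. The groups did not overlap at either age, and the log2 fold change was -2.74 (edgeR adjusted p = 0.00016) at 1MO and -1.99 (edgeR adjusted p = 0.0020) at 3MO, the latter with an adjusted p of 0.076 without the libraries numbered 3. Lmo2, an adaptor that joins Tal1 and GATA factors, was at 138.8 ± 10.4 against 436.1 ± 84.7 CPM at 1MO, and at 3MO at 118.3 ± 10.9 against 438.3 ± 7.53 CPM (SD, n = 3). Tal1, their basic helix-loop-helix partner, was lower in Ly6d- CLPs by a log2 fold change of -1.43 at 1MO and -1.42 at 3MO. Nfe2, a factor of megakaryocytes and red cells, had values of -1.93 and -1.58, and Zfpm1, the cofactor of GATA factors also called FOG1, -1.42 and -1.20. Hemgn, a nuclear protein gene of hematopoietic progenitors, had -1.88 and passed at 3MO (edgeR adjusted p = 0.025). It did not pass in a fit of only the compared groups (adjusted p 0.087), without the libraries numbered 3 (0.096), or without 1 of 3 single libraries: 3MO Ly6d- CLPs number 1 and 3MO Flk2+ MPPs numbers 2 and 3 (adjusted p 0.052 to 0.063).

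Car2, another carbonic anhydrase gene, passed at both ages. It stood at 26.7, 34.6 and 43.9 CPM in 1MO Ly6d- CLPs and at 238.8, 191.6 and 346.0 CPM in 1MO Flk2+ MPPs, a log2 fold change of -2.88 (edgeR adjusted p = 3.1e-06). At 3MO its log2 fold change was -2.66. The difference between Car1 and Car2 was not tested. In the opposite direction, Tfrc, the transferrin receptor gene for iron uptake, stood at 730.4, 393.1 and 493.7 CPM in 1MO Ly6d- CLPs and at 103.8, 129.7 and 70.2 CPM in 1MO Flk2+ MPPs. Its log2 fold change was 2.41 at 1MO and 2.28 at 3MO. Cpox, an enzyme of heme synthesis, was higher in Ly6d- CLPs at 3MO by 1.03 (edgeR adjusted p = 0.031). The difference of Cpox fell to 0.64 (adjusted p 0.17) without the 3MO Ly6d- CLPs library numbered 2, at 91.5 CPM the highest, and Cpox did not pass under 7 alternatives in all, among them leaving out any 1 of the 3 libraries of 3MO Flk2+ MPPs. Socs2, a feedback inhibitor of cytokine signaling, was higher in Ly6d- CLPs at 3MO by 2.53. Pim1, a kinase gene induced by cytokines, was higher in Flk2+ MPPs at 1MO by a log2 fold change of -0.64 for CLPs over MPPs (edgeR adjusted p = 0.044). Pim1 did not pass under 10 alternatives, with adjusted p from 0.051 for DESeq2's size factors to 0.20 without the 1MO Ly6d- CLPs library numbered 3, and 8 of these leave out a single library. For Tfrc, Cpox, Tal1 and Zfpm1, the library numbered 3 was the highest in 0 to 2 of the 4 groups, and for Lmo2, Nfe2 and Car2 in all 4.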

How the data were processed

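Per the labels, the build is mm10. The authors' methods describe nf-core steps of STAR alignment and Salmon quantification after FastQC, UMI-tools, Trim Galore and SortMeRNA. They name a directional library kit, and paired-end or single-end reads without tying either to a library. The authors deposited 1 table of estimated counts, scaled for transcript length and not for depth. The annotation release and the strand setting are not given in the sources used here. All 12 columns matched samples by name. Counts were rounded and tested with edgeR 4.0.16 (filterByExpr, TMM, quasi-likelihood, 1 fit of 4 groups, Benjamini-Hochberg over 13367 genes) in R 4.3.3. Alternatives included DESeq2 1.42.0. The study states sorts per mouse in its methods and 3 independent experiments in a legend, without tying libraries to animals, so p-values measure the spread between these libraries. Replicate shares used log2 CPM with a prior count of 2. Gene positions, exon lengths and coding sequences came from GENCODE M21 on GRCm38, with 32158 of 32285 identifiers matched, and promoters from RefSeq on GRCm38.p6. The fits were tested on simulated data. The genes, lists and tests were chosen with earlier results of these data known. The text names the 9 genes, the other listed erythroid genes that passed in a comparison, and the 10 genes most like the globins. Apex2 and Gm16399 were named for their overlap with these genes, and any other gene after its values were seen.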

Additional observations from a re-analysis of the deposited data

Results flagged for a closer look

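Among the other erythroid genes, Socs2, an inhibitor of cytokine signaling that includes the erythropoietin pathway, had age differences of opposite sign in the 2 cell types, neither of which passed in edgeR (adjusted p 0.84 in Ly6d- CLPs and 0.44 in Flk2+ MPPs). DESeq2 called the one in Flk2+ MPPs only. In Ly6d- CLPs it stood at 19.1 to 20.6 CPM at 1MO and at 28.5 to 35.1 CPM at 3MO. In Flk2+ MPPs it stood at 11.7 to 17.2 CPM at 1MO and at 2.90 to 7.55 CPM at 3MO. The groups of 3 did not overlap in either cell type. The interaction of age and cell type had a log2 value of 2.11 (standard error 0.46), and its edgeR adjusted p over all genes tested was 0.92, so the difference between the cell types did not pass the correction in edgeR, while DESeq2 called it.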

How the results depend on the processing

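None of the 9 genes passed in any of the 764 values recomputed under alternatives for the 4 comparisons between groups (smallest adjusted p 0.21), and 94 of them had the other sign from the reported value. The filter of at least 10 counts in every library kept 2 of the 9 genes. The calls of other erythroid genes kept their direction in 414 of 414 alternative values and their significance in 391. The calls lost were those of Pim1, Cpox and Hemgn under several alternatives and of Gata2 at 3MO. Without the 4 libraries numbered 3, an alternative added after seeing the data, Pim1 had an adjusted p of 0.19, Cpox 0.13 and Hemgn 0.096.

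Signs changed for Hbb-bs between the cell types at 1MO with DESeq2's size factors (0.0014), no low-count filter (0.00038) and DESeq2 (0.0075). For Car1, thinning every library to the smallest total gave -0.0018 for age in Flk2+ MPPs and 0.054 between the cell types at 3MO. Without the libraries numbered 3, age in Ly6d- CLPs gave 0.87 for Hbb-bs, 0.45 for Slc4a1 and 0.60 for Car1, age in Flk2+ MPPs gave -0.16 for Car1, and the cell types differed by -0.33 at 1MO and 0.42 at 3MO for Car1. The replicate block gave 0.13 for Hbb-bs and 0.12 for Slc4a1 with age in Ly6d- CLPs and 0.027 for Car1 between the cell types at 3MO. The cause was not tested.

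Leaving out 1 library at a time, log2 fold changes with age in Ly6d- CLPs ran from -1.71 to 2.08 for Hbb-bs, -0.96 to 1.03 for Slc4a1 and -0.46 to 0.32 for Car1, and from -5.66 to -1.004 for Epor. With age in Flk2+ MPPs they ran from -1.69 to 1.11, -1.88 to 1.43 and -0.12 to 0.27 for the same genes. Between the cell types they ran from -2.59 to 1.22, -1.01 to 1.94 and -0.30 to 0.43 at 1MO (1.38 to 2.91 for Epor), and from -1.60 to 1.18, -0.47 to 1.89 and -0.34 to 0.25 at 3MO. The upper ends for Hbb-bs and Slc4a1 with age came from leaving out the 1MO library numbered 3. The median share between numbers of the 9 genes ran from 24.8% without the libraries numbered 3 to 78.8%. With a pseudocount of 10, the hemoglobin level was 4.78 for number 1 and 4.49 for number 2.

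Whether equal numbers mark a shared mouse or experiment is not stated, and the numbers were not used as pairs: 5 of 18 same-numbered pairs had a correlation of deviations over 0.1 (range -0.034 to 0.21), and 8 of 12 libraries correlated best with their own number. With the replicate block, 0 of the 9 genes passed, age in Ly6d- CLPs gave -2.85 for Alas2 and -2.45 for Epor, standard errors of Hbb-bs were 0.49 to 0.50 against 1.09 without it and those of Car1 0.53 to 0.54 against 0.50, and the whole table gave 915 and 1007 genes between the cell types at 1MO and 3MO against 719 and 812. With the block within each age, they were 836 and 921. Over the whole table DESeq2 called 66 genes for age in Ly6d- CLPs and 35 in Flk2+ MPPs against 10 and 3, 7 for the interaction against 0, and 1234 and 1420 between the cell types. Without a low-count filter, 46, 26 and 6 passed for age in each cell type and the interaction. With at least 10 counts in every library, 4 and 1 passed for age. Fits of the compared groups gave 4 and 4 for age in Ly6d- CLPs and Flk2+ MPPs, and 900 and 435 between the cell types at 1MO and 3MO. Leaving out 1 library gave 6 to 10, 3 to 5 and 0 to 1 genes for age in each cell type and the interaction (6 without the 1MO Ly6d- CLPs library numbered 1 or the 3MO one numbered 2, 5 without the 3MO Flk2+ MPPs library numbered 2, 1 without the 3MO Ly6d- CLPs library numbered 3), and 460 to 887 and 553 to 881 between the cell types. Without the libraries numbered 3, 2, 1, 1, 258 and 290 genes passed in the 5 comparisons. Levels of Alas2, Klf1 and Epor rest on at most 84.8 estimated counts in a library.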
